A study of Mus musculus with 24 samples.

Results

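The 10 genes described here belong to the growth hormone and insulin-like growth factor (IGF) axis and were followed in the hippocampus of mice that carried a Nestin-Cre transgene, a floxed Egr1 gene, both or neither. They were chosen by symbol: the ligands Igf1 and Igf2, the receptors Ghr, Igf1r and Igf2r, the binding proteins Igfbp2, Igfbp3, Igfbp4 and Igfbp5, and the adaptor Irs2. They are 10 of the 36605 genes in the count table, and all 10 passed the filter on low counts in every comparison. RNA-seq was performed on the hippocampus of 24 mice, 3 females and 3 males of each of 4 genotypes. Egr1wtNesCre- mice were wild type at both loci, Egr1wtNesCre+ mice carried the transgene with intact Egr1, Egr1fNesCre- mice carried the floxed Egr1 gene without Cre, and Egr1fNesCre+ mice carried both and are called Egr1cKO. The floxed gene came from a C57BL/6N tm1a line and the transgene was B6.Cg-Tg(Nes-cre)1Kln/J. Nestin regulatory sequence drives this Cre from neural precursors onward, so that recombination is not restricted to the hippocampus or to 1 type of neuron. No treatment was named, and the sources used here give no age for these animals beyond adult.

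Growth hormone from the pituitary acts through its receptor GHR and the JAK2 and STAT5 proteins to raise IGF1, mainly in liver but also in other tissues. IGF1 and IGF2 signal through the tyrosine kinase receptor IGF1R, whose adaptors IRS1 and IRS2 couple it to the PI3K, AKT and mTOR pathway, while IGF2R takes up IGF2 for degradation and the binding proteins control how much ligand is free. In the adult brain, IGF1 is made by neurons and glia, IGF2 mainly by meninges, choroid plexus and vessels, and both support neuronal survival, synapses and memory. Nestin-Cre mice of this line are known for reduced growth and for a human growth hormone sequence in the transgene, which is the reason for looking at this axis. A human transcript is no feature of the mouse annotation and was not measured here.

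The assay counted fragments per gene, and levels are given as CPM, a gene's count relative to the size of its library after TMM scaling. The 24 libraries held 18025168 to 34955004 counts assigned to genes, with a median of 22743950.5. Egr1 itself lay between 4.86 and 10.2 CPM in the 6 Egr1cKO mice and between 47.7 and 149 CPM in the other 18, with no overlap. In the labels the tissue is hippocampus and the cell type is endocrine. The 6 hippocampal excitatory neuron markers summed to 699.6 CPM or more in every mouse, whereas the 7 pituitary hormone and pituitary cell genes present in the table summed to at most 3.84 CPM. A level above 100 CPM of Ttr, a defining choroid plexus gene, was found in 5 mice: 2 of the Egr1wtNesCre+, 2 of the Egr1fNesCre- and 1 of the Egr1cKO mice. The mouse numbers in the labels form 1 series for all Egr1wt mice and another for all Egr1f mice, so that the floxed allele and that series cannot be told apart, whereas Cre+ and Cre- mice of each allele share a series.

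Because the study removed a transcription factor, the windows around the members' transcription starts were searched for its site. Shown are the window of Irs2, those that held the site, and 1 of Igf2. EGR1 binds a GC-rich site, searched here as GCGNGGGCG on both strands, in RefSeq windows of 300 bases that run from 250 bases before to 50 after the start (build GRCm38.p6). All 10 genes matched, with 15 windows among them. The site was found in 2 of the 15, those of Ghr and Igf2r, and in 5.55% of all 32851 windows. Irs2, the gene called in 1 comparison, had no such site in its window but held an E-box, CACGTG, next to an insulin response element, TGTTTTG, letters that were found in 7.15% and 6.28% of all windows on either strand. The E-box also occurred in windows of Igf2r and Igfbp2, and the insulin response element in no other window of the 10 genes. None of these matches overlapped another. A match is a description of the sequence and not evidence of binding. The windows of Irs2 (chr8:11008880-11009179, minus strand), Ghr (chr15:3583303-3583602, minus strand) and Igf2r (chr17:12769657-12769956, minus strand) follow, 5′ to 3′, with matches in capitals. The most downstream window of Igf2 (chr7:142657447-142657746, minus strand), 1 of its 4, is added because Igf2 had the largest Cre difference of the 10 genes, and it held no match.
Irs2: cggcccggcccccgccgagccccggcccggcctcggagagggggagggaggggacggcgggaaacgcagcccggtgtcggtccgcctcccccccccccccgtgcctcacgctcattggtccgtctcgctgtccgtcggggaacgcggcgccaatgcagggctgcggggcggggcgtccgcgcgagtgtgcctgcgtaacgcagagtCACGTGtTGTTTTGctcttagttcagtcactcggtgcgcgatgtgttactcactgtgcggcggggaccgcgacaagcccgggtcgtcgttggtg
Ghr: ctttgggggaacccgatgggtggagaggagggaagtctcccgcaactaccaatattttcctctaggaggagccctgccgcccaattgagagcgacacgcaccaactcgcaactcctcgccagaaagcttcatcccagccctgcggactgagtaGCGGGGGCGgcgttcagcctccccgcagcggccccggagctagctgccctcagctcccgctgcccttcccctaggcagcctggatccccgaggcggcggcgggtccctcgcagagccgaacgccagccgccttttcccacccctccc
Igf2r: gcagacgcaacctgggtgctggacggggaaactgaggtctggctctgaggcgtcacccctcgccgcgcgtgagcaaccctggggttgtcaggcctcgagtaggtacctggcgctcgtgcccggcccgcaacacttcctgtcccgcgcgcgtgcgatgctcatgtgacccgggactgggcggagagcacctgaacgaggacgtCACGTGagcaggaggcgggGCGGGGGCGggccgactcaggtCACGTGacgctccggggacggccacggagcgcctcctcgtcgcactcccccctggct
Igf2: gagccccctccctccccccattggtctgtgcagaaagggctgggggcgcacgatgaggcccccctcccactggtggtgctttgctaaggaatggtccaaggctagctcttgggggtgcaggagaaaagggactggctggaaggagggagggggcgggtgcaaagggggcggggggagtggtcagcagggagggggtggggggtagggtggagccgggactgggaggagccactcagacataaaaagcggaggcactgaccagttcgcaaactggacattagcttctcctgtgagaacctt

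Per length of exon, the binding protein Igfbp5 had the highest level of the 10 genes, with 29.2 ± 3.41 CPM per kb (SD, n = 24). Igfbp4 at 16.5 ± 2.05, Irs2 at 16.4 ± 3.57 and Igfbp2 at 14.4 ± 4.59 CPM per kb came next and did not differ from each other beyond their spread. Igf2r at 5.49 ± 0.723, Igf1r at 4.95 ± 0.572 and Igfbp3 at 4.63 ± 0.785 CPM per kb formed a lower group whose spreads overlapped. Ghr at 1.03 ± 0.161 and Igf1 at 0.860 ± 0.177 CPM per kb were lower again and also overlapped. Igf2, at 0.161 ± 0.108 CPM per kb, was lowest and the most variable: its reads ranged from 1 to 55 per mouse. Across the 24 mice the coefficient of variation of the CPM was 67.5% for Igf2, 31.9% for Igfbp2, 21.8% for Irs2 and 20.6% for Igf1, and it lay between 11.5% and 17.0% for the other 6 genes. In a bulk tissue, fewer cells of a type and less RNA per cell cannot be told apart.

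**Figure D1:**
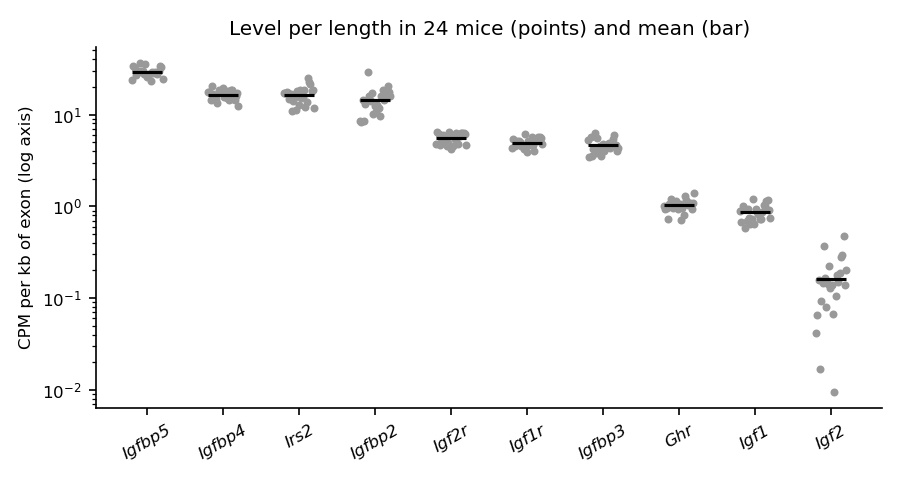
Level of each gene in CPM per kb of exon (vertical log axis), with 1 point for each of the 24 mice and a bar at the mean. Igfbp5 is highest at 29.2 and Igf2 lowest at 0.161 CPM per kb, and only Igf2 spreads over more than 1 order of magnitude.

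With the sexes pooled, 3 comparisons were fitted: Cre+ against Cre- mice within Egr1wt, the same within Egr1f, and Egr1cKO against the other 18 mice. A gene was called where edgeR's quasi-likelihood test gave an adjusted p of 0.05 or lower, over all genes tested, and the fold change reached 1.2. None of the 10 genes was called in any of the 3. Within Egr1wt, 0 of 17167 genes were called (percent called 0), and 3 of the 10 members had an unadjusted p under 0.05, against 6.05% of all genes. Within Egr1f, 0.0232% of all genes were called and 4 of the 10 members had an unadjusted p under 0.05, against 16.2% of all genes. For Egr1cKO against the other 18 mice, 0.00543% of genes were called, and 4 of the 10 members had an unadjusted p under 0.05, against 15.1% of all genes. DESeq2 also called 0 of the 10 genes in each of these comparisons. The median log2 fold change of the 10 genes was 0.02 within Egr1wt, with 5 above 0, and 0.14 within Egr1f, with 9 above 0. It was 0.16 for Egr1cKO against the rest, again with 9 above 0, while the medians of all genes tested were 0.01, -0.01 and -0.01. The last of these comparisons shares the Egr1cKO mice with the one within Egr1f.

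**Figure D2:**
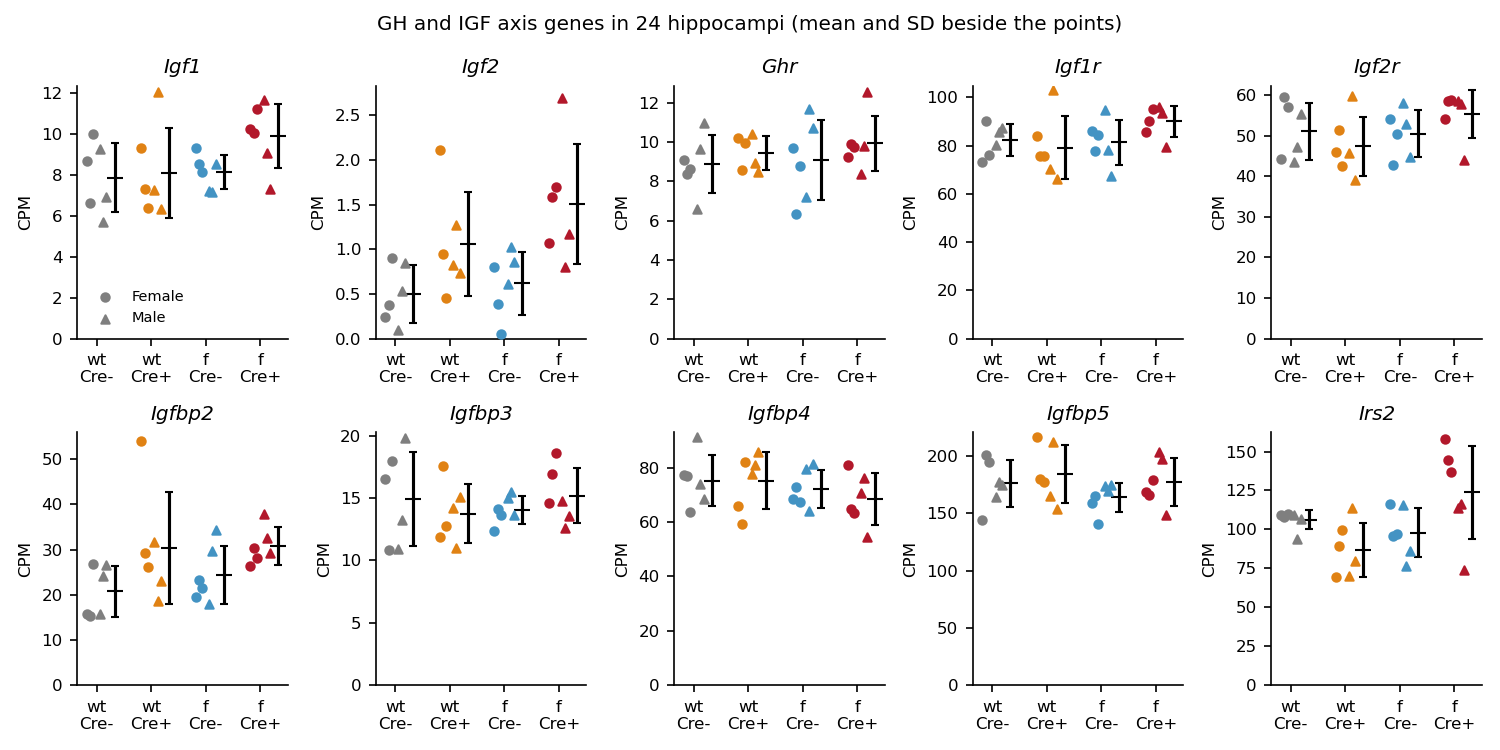
CPM of the 10 genes in females (circles) and males (triangles) of the 4 genotypes, each panel from 0, with the mean and SD of the 6 mice beside the points. Igf2 lies at 0.805 CPM or more in all 6 Egr1cKO mice, and the Irs2 of the 3 Egr1cKO females lies above that of every other mouse.

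**Figure D3:**
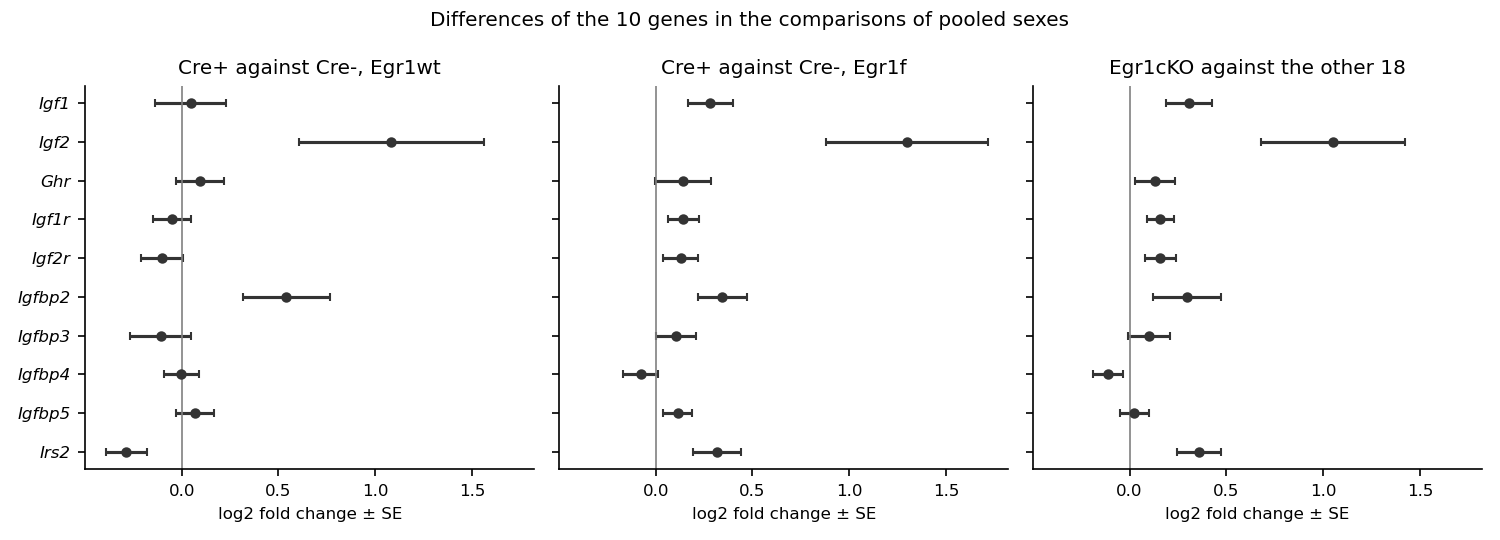
log2 fold change of each gene (horizontal axis) with its SE in the 3 comparisons of pooled sexes. Igf2 and Igfbp2 lie above 0 in all 3 panels, as do Igf1, Ghr and Igfbp5. Irs2 lies below 0 within Egr1wt and above 0 in the other 2, as do Igf1r, Igf2r and Igfbp3. None of the values was called.

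Among the ligands, Igf2 (chr7:142650766-142666816, minus strand) had the largest differences of the 10 genes. It encodes a fetal growth factor that is imprinted in most tissues. Its lowest, median and highest levels were 0.0969, 0.455 and 0.902 CPM in Egr1wtNesCre- mice and 0.455, 0.884 and 2.11 CPM in Egr1wtNesCre+ mice. In Egr1fNesCre- mice they were 0.0548, 0.704 and 1.02 CPM, and in Egr1cKO mice 0.805, 1.38 and 2.697 CPM. The medians of both Cre+ groups exceeded those of their Cre- groups, but the ranges overlapped within each allele. The log2 fold change was 1.08 (SE 0.478) within Egr1wt and 1.30 (SE 0.417) within Egr1f, with adjusted p values of 0.754 and 0.253. In Egr1cKO against the other 18 mice it was 1.05 (SE 0.371), adjusted p = 0.224. A factorial model over the 24 mice gave the Cre difference averaged over both alleles as 1.18 (SE 0.334) for Igf2, with an unadjusted p of 0.00155 and an adjusted p of 0.627. In that model 0.0456% of 19742 genes were called for the Cre term at an adjusted p of at most 0.05, and 2 of the 10 members, Igf2 and Igfbp2, had an unadjusted p under 0.05 against 4.29% of all genes. The difference between the alleles in the Cre difference of Igf2 was 0.19 (SE 0.672). Without the filter on low counts, Igf2 passed the threshold within Egr1f (adjusted p = 0.0173), in the Cre term (0.00807) and in Egr1f females (0.0229), while over all alternatives its adjusted p reached 0.697, 1 and 0.436 in these comparisons. Dropping the filter also raised the number of genes called, from 4 to 808 within Egr1f and from 9 to 191 in the Cre term. The antisense gene Igf2os overlaps Igf2, and unstranded reads of the 2 genes cannot be told apart, but its mean was 0.0848 CPM.

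Markers of other cell types moved beside Igf2, among them those of meninges and fibroblasts within Egr1f and those of astrocytes in both alleles. The summed level of the 11 genes of meninges and fibroblasts ranged from 36.3 to 158 CPM (median 84.9) in Egr1wtNesCre- mice, from 65.7 to 108 (median 93.3) in Egr1wtNesCre+ mice, from 70.3 to 88.4 (median 82.3) in Egr1fNesCre- mice and from 70.0 to 132 (median 103) in Egr1cKO mice. Within Egr1f, 9 of the 11 had a log2 fold change above 0, with a median of 0.57, and 3 had an unadjusted p under 0.05, whereas within Egr1wt 4 of 11 were above 0 and the median was -0.04. Over the 24 mice the Pearson r of Igf2 with this sum was 0.554 on the log2(CPM + 1) scale, and none of the 11 genes was at 0 in every mouse. The r of Igf2 was higher with the sum of the 5 astrocyte markers, at 0.693, none of which was at 0. That sum had a median of 1450 CPM (1263 to 1521) in Egr1wtNesCre- mice, 1569 (1368 to 1651) in Egr1wtNesCre+ mice, 1376 (1141 to 1540) in Egr1fNesCre- mice and 1730 (1367 to 1811) in Egr1cKO mice. Of these 5 markers, 4 within Egr1wt and 5 within Egr1f had a log2 fold change above 0, with medians of 0.12 and 0.21, and 2 in each allele had an unadjusted p under 0.05. Aqp4, the astrocyte water channel, was called within Egr1f, where it was 239 ± 26.0 CPM with and 135 ± 23.6 CPM without Cre (log2 fold change 0.82, SE 0.107, adjusted p = 0.00776), and in the Cre term (0.61, SE 0.0775, adjusted p = 0.000179). With the sum of the 6 endothelium markers the r of Igf2 was 0.551, and with that of the 6 mural cell markers 0.495. Of the endothelium markers 5 were above 0 in each allele, with medians of 0.04 within Egr1wt and 0.13 within Egr1f. An unadjusted p under 0.05 was reached by 1 of them within Egr1wt and 2 within Egr1f. Of the mural cell markers 2 were above 0 within Egr1wt and 3 within Egr1f. The 3 genes whose pattern was most like that of Igf2 were Mmp14 (r = 0.835), a membrane matrix protease, and the fibrillar collagen genes Col1a2 (r = 0.830) and Col1a1 (r = 0.782), of which the collagens belong to the list of meninges and fibroblasts. The part of these cells in the Igf2 differences was not tested.

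Igf1 (chr10:87858265-87937042, plus strand) encodes the ligand through which growth hormone acts on many tissues. Its lowest, median and highest levels were 5.70, 7.82 and 10.004 CPM in Egr1wtNesCre- and 6.35, 7.30 and 12.0 CPM in Egr1wtNesCre+ mice. They were 7.15, 8.35 and 9.33 CPM in Egr1fNesCre- and 7.30, 10.1 and 11.7 CPM in Egr1cKO mice. Within Egr1wt the log2 fold change of 0.05 was smaller than its SE of 0.184. Within Egr1f it was 0.28 (SE 0.117, adjusted p = 0.273) and against the other 18 mice 0.31 (SE 0.120, adjusted p = 0.242), with overlapping ranges in both. Over the 24 mice the r of Igf1 with the astrocyte sum was 0.562. Within Egr1f 4 of the 5 microglia markers were above 0 (median 0.22), and 3 were higher at an unadjusted p under 0.05, against 16.2% of all genes. Within Egr1wt 2 of these 5 were above 0 (median -0.02). The part of these cells in the Igf1 differences was not tested.

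Among the receptors, Ghr (chr15:3317760-3583492, minus strand), the receptor of growth hormone, had overlapping ranges: 6.59 to 10.997 CPM in Egr1wtNesCre-, 8.50 to 10.4 in Egr1wtNesCre+, 6.36 to 11.7 in Egr1fNesCre- and 8.38 to 12.6 CPM in Egr1cKO mice. Its log2 fold changes were 0.09 (SE 0.125), 0.14 (SE 0.144) and 0.13 (SE 0.106) in the 3 comparisons, each within 2 SE of 0. Igf1r (chr7:67952827-68233668, plus strand), the signalling receptor, had medians of 83.0 CPM in Egr1wtNesCre-, 75.8 in Egr1wtNesCre+, 81.3 in Egr1fNesCre- and 91.8 CPM in Egr1cKO mice. Its log2 fold change was -0.05 (SE 0.0962) within Egr1wt, 0.14 (SE 0.0802) within Egr1f and 0.16 (SE 0.0705, adjusted p = 0.293) against the other 18 mice. Igf2r (chr17:12682406-12769664, minus strand), the scavenger of IGF2, had medians of 51.3, 45.9, 51.6 and 58.2 CPM in the same order of genotypes, with log2 fold changes of -0.10 (SE 0.108), 0.13 (SE 0.0911) and 0.16 (SE 0.0813). The antisense RNA Airn lies across Igf2r, with a mean of 1.45 CPM. Of all pairs of members, Igf1r and Igf2r followed each other most closely over the 24 mice (r = 0.794), next to Igf2 and Igfbp2 (r = 0.718).

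Of the binding proteins, Igfbp2 (chr1:72824503-72852474, plus strand) differed most. IGFBP2 is the main IGF binding protein of cerebrospinal fluid and is made by choroid plexus, meninges and astrocytes. Its lowest, median and highest levels were 15.3, 19.98 and 26.8 CPM in Egr1wtNesCre- and 18.5, 27.7 and 54.0 CPM in Egr1wtNesCre+ mice. They were 17.9, 22.4 and 34.4 CPM in Egr1fNesCre- and 26.3, 29.8 and 38.0 CPM in Egr1cKO mice. Both Cre+ groups had the higher median, and the ranges overlapped. The log2 fold change was 0.54 (SE 0.225, adjusted p = 0.754) within Egr1wt, 0.34 (SE 0.126, adjusted p = 0.255) within Egr1f, and 0.45 (SE 0.144, adjusted p = 0.884) for the Cre term of the factorial model. Against the other 18 mice it was 0.30 (SE 0.177, adjusted p = 0.425). Without the filter on low counts Igfbp2 passed the threshold within Egr1wt (adjusted p = 7.39e-05), within Egr1f (0.0176), in the Cre term (3.46e-08), and in the females of each allele (1.30e-08 and 0.0438). Over all alternatives its adjusted p reached 0.944, 0.505, 1, 0.972 and 0.379 in these comparisons. Dropping the filter also raised the number of genes called, to 156 within Egr1wt, 808 within Egr1f and 191 in the Cre term. With the filter these counts were 0, 4 and 9. Within Egr1wt the SE of Igfbp2 was 0.0993 without the filter, at a log2 fold change of 0.53.

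Markers of the choroid plexus moved beside Igfbp2. The summed level of the 10 choroid plexus genes was 37.5 to 50.1 CPM in Egr1wtNesCre- mice and 59.2 to 2075 CPM in Egr1wtNesCre+ mice, with no overlap. It was 37.3 to 1057 CPM in Egr1fNesCre- and 32.2 to 1152 CPM in Egr1cKO mice. Within Egr1wt, all 7 of these genes that passed the filter had a log2 fold change above 0, with a median of 1.85, and 5 had an unadjusted p under 0.05. Within Egr1f, with the sexes pooled, 3 of the 6 that passed were above 0, with a median of -0.03. None of the 10 was at 0 in every mouse. The mouse with the highest Igfbp2, female 1 of Egr1wtNesCre+ at 54.0 CPM, was also the one with the highest choroid plexus sum. Over the 24 mice the r of Igfbp2 was 0.607 with the choroid plexus sum and 0.630 with the meningeal sum, and its closest genes were Cldn1 (r = 0.821), Capn2 (r = 0.806) and Slc13a4 (r = 0.802). Without the 5 mice above 100 CPM of Ttr the Igfbp2 log2 fold change was 0.35 (SE 0.187) within Egr1wt and 0.55 (SE 0.126) within Egr1f, and that of Igf2 was 0.78 (SE 0.520) and 1.70 (SE 0.496). How much of the Igfbp2 difference came with these cells was not tested.

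**Figure D4:**
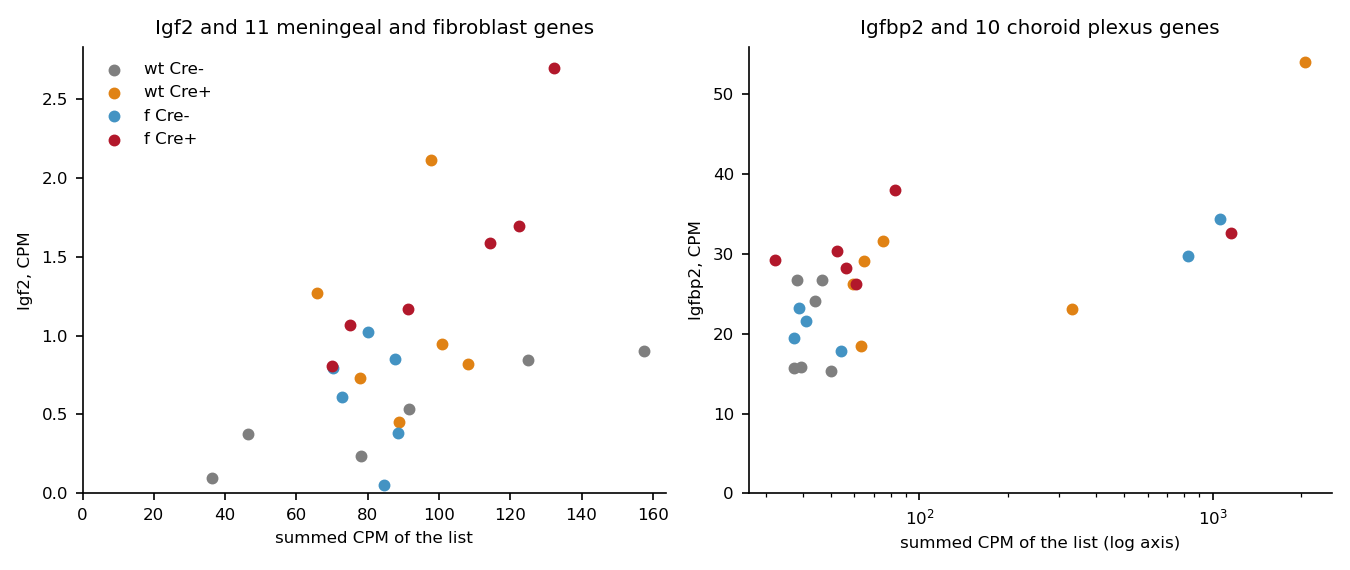
Left, Igf2 (CPM) against the summed CPM of 11 meningeal and fibroblast genes. Right, Igfbp2 (CPM) against the summed CPM of 10 choroid plexus genes on a log axis, with 1 point per mouse coloured by genotype. The mouse with the highest choroid plexus sum has the highest Igfbp2, 54.0 CPM, and the 3 highest Igf2 values belong to Cre+ mice.

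The other binding proteins differed less. Igfbp5 (chr1:72857932-72874884, minus strand), which lies beside Igfbp2 in the opposite orientation, had medians between 167 and 178 CPM in the 4 genotypes and log2 fold changes of 0.07 (SE 0.0966), 0.11 (SE 0.0754) and 0.03 (SE 0.0764) in the 3 comparisons. Igfbp4 (chr11:99041244-99054392, plus strand), whose product is cleaved by the protease PAPP-A to free IGF, had medians between 67.7 and 79.4 CPM and log2 fold changes of -0.0012 (SE 0.0900), -0.08 (SE 0.0919) and -0.11 (SE 0.0781). Igfbp3 (chr11:7206086-7213923, minus strand), the main carrier of IGF in blood, had medians between 13.5 and 14.9 CPM and log2 fold changes of -0.11 (SE 0.159), 0.11 (SE 0.102) and 0.10 (SE 0.108). Igfbp3 followed the meningeal and fibroblast sum with an r of 0.732 over the 24 mice, and the fibroblast gene Dcn, which is in that list, was among the 3 genes most like it (r = 0.834), after Eya2 (r = 0.844) and Cpne2 (r = 0.839).

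Irs2 (chr8:10984681-11008458, minus strand) encodes the adaptor that links the insulin and IGF1 receptors to PI3K, and its log2 fold changes with Cre had opposite signs in the 2 alleles, with neither past the threshold. Within Egr1wt its lowest, median and highest levels were 93.9, 109 and 110 CPM without Cre and 69.3, 84.4 and 113 CPM with Cre. Within Egr1f they were 76.4, 96.5 and 116 CPM without Cre and 73.7, 126 and 158 CPM with Cre. Of the Egr1wtNesCre+ mice, 5 of 6 lay below all but 1 of the Egr1wtNesCre- mice, whereas 3 of the Egr1cKO mice lay above all other mice. The log2 fold change was -0.29 (SE 0.106, adjusted p = 0.754) within Egr1wt and 0.32 (SE 0.124, adjusted p = 0.261) within Egr1f. Against the other 18 mice it was 0.36 (SE 0.114), the lowest adjusted p of the 10 genes in that comparison at 0.204. The difference between the alleles in the Cre difference was 0.61 (SE 0.184), with an unadjusted p of 0.00252 and an adjusted p of 0.159 in edgeR's quasi-likelihood test. In that interaction 0.00507% of genes were called, and 1 of the 10 members, Irs2, had an unadjusted p under 0.05, against 18.4% of all genes. In the same interaction 8 of the 10 choroid plexus markers (list median -3.04) and 4 of the 5 oligodendrocyte markers (list median -0.37) had values below 0 at an unadjusted p under 0.05. Of the 5 astrocyte markers 3 were above 0, 2 of them at that level (list median 0.23). Of the 6 hippocampal excitatory neuron markers 5 were above 0, 1 of them at that level (list median 0.12). Within Egr1wt 0 of these 6 were above 0 with Cre (median -0.12), and within Egr1f 3 were (median 0.0061). Over the 24 mice the Pearson r of Irs2 was -0.412 with the choroid plexus sum and 0.564 with the astrocyte sum, and the part of these cell types in the interaction was not tested. DESeq2 put the interaction of Irs2 past the threshold (adjusted p = 0.0438), as did edgeR without a filter on low counts (8.19e-06) and without male 2 of Egr1wtNesCre+ (0.0189). DESeq2 and the fit without the filter also called more of all genes than the main fit. Over all alternatives, 1 to 1455 genes were called in the interaction. Without the 5 mice above 100 CPM of Ttr the interaction was 0.43 with an adjusted p of 0.476.

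Split by sex, Irs2 was the only member that edgeR called. In Egr1fNesCre- females it was 116, 95.9 and 97.1 CPM, and in Egr1cKO females 158, 144 and 137 CPM, so that the groups did not overlap. The log2 fold change was 0.50 (SE 0.0962), an increase of 1.41-fold, with an adjusted p of 0.0470. In Egr1f females 0.288% of genes were called, and 1 of the 10 members was. The call rested on all but 1 of these females: leaving out Egr1fNesCre- female 2 or 3 or any Egr1cKO female gave log2 fold changes of 0.45 to 0.55 with adjusted p values of 0.150 to 0.317, and leaving out Egr1fNesCre- female 1 gave 0.61 with an adjusted p of 4.9e-05. Over the fits that left out 1 of these females, 2 to 2896 of all genes were called. With the replicate number as a block, although these numbers do not pair the mice, the adjusted p was 0.0981. In Egr1f males Irs2 was 116, 76.4 and 86.0 CPM without Cre and 114, 116 and 73.7 CPM with Cre, with overlapping groups and a log2 fold change of 0.13 (SE 0.196, adjusted p = 0.957). In Egr1wt females it was 109, 108 and 110 CPM without Cre and 69.3, 89.2 and 99.4 CPM with Cre. These groups did not overlap, and the log2 fold change was -0.34 (SE 0.118, adjusted p = 0.610). In Egr1wt males the levels were 110, 93.9 and 107 CPM without and 70.2, 113 and 79.7 CPM with Cre, with a log2 fold change of -0.24 (SE 0.162).

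**Figure D5:**
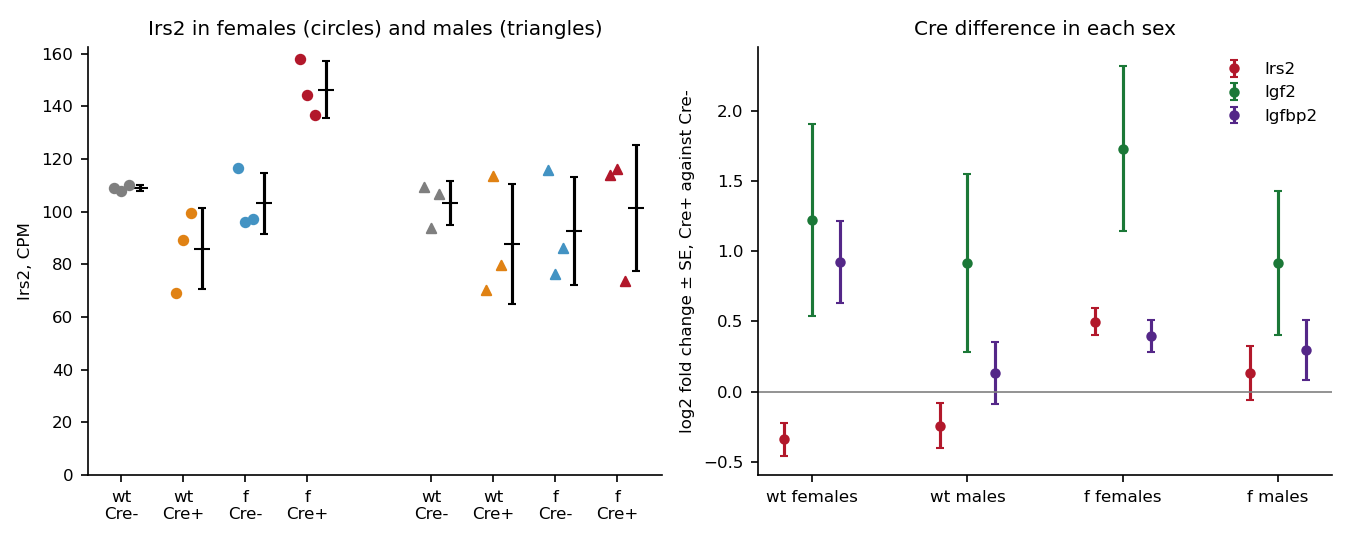
Left, Irs2 in CPM (axis from 0) in females (circles) and males (triangles) of each genotype, with mean and SD of 3 mice. Right, log2 fold change with SE of Cre+ against Cre- mice for Irs2, Igf2 and Igfbp2 in each sex and allele: Irs2 is -0.34 and -0.24 in Egr1wt and 0.50 and 0.13 in Egr1f, whereas Igf2 and Igfbp2 are above 0 in all 4.

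Egr1f females were the comparison in which most members separated by Cre. There 6 of the 10 genes had groups of 3 that did not overlap, each higher with Cre, against 22.1% of all genes in either direction, and 4 of the 10 had an unadjusted p under 0.05 against 18.4%. Igf1 was 9.33, 8.53 and 8.16 CPM without Cre and 10.2, 10.1 and 11.2 CPM with Cre, with a log2 fold change of 0.27 (SE 0.147, adjusted p = 0.344). Igf2 was 0.797, 0.384 and 0.0548 CPM without Cre, from 20, 9 and 1 reads, and 1.07, 1.59 and 1.70 CPM with Cre, from 28, 34 and 40 reads. Its log2 fold change was 1.73 (SE 0.588, adjusted p = 0.146), and leaving out 1 female gave 1.27 (without Egr1fNesCre- female 3, the mouse with 1 read) to 2.62 (without Egr1fNesCre- female 1). Igfbp2 was 19.5, 23.3 and 21.6 CPM without and 26.3, 30.4 and 28.2 CPM with Cre, with a log2 fold change of 0.40 (SE 0.115, adjusted p = 0.101). DESeq2, which called more of all genes in these females than edgeR, called Igfbp2 (adjusted p = 0.0456). Igfbp3 was 12.4, 14.2 and 13.6 CPM without and 14.6, 17.0 and 18.7 CPM with Cre, with a log2 fold change of 0.32 (SE 0.136, adjusted p = 0.239). Igfbp5 was 159, 165 and 141 CPM without and 168, 166 and 179 CPM with Cre. The 6 that separated thus comprised both ligands, 3 binding proteins and Irs2, and none of the 3 receptors. In the same females, 4 of the 5 astrocyte markers had an unadjusted p under 0.05 and were higher with Cre, with a list median of 0.41, and 4 of the 5 oligodendrocyte markers were lower at that level, with a list median of -0.39. Choroid plexus markers were above 0 in 4 of 6 tested, 2 of them at that level (list median 0.42), and Ttr was called (adjusted p = 0.014). Their summed level was 37.3, 38.7 and 40.99 CPM without and 60.7, 52.3 and 56.2 CPM with Cre, without overlap. Markers of meninges and fibroblasts were above 0 in 9 of 11, 3 of them at that level (list median 0.34). The part of these cell types in the differences was not tested.

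In the other sexes and alleles fewer members separated. In Egr1f males 0 of the 10 genes were called by edgeR or DESeq2 (0.00569% of all genes by edgeR), 0 had an unadjusted p under 0.05 (3.04% of all genes) and 0 had groups without overlap (8.88%). In Egr1wt males the same 3 counts were 0, against 0, 1.84% and 6.19% of all genes, and DESeq2 called none. In Egr1wt females 0 members were called by either tool (0 of all genes by edgeR). There 2 of the 10, Igfbp2 and Irs2, had an unadjusted p under 0.05 against 7.45% of all genes, and only Irs2 had groups without overlap, against 14.3%. Igfbp2 in these females was 15.8, 15.3 and 26.8 CPM without Cre and 54.0, 29.2 and 26.2 CPM with Cre, a log2 fold change of 0.93 (SE 0.291, adjusted p = 0.587), which was 0.52 without Egr1wtNesCre+ female 1 and at most 1.24 without any other female. Whether the Cre difference, averaged over the alleles, differed between the sexes was tested directly. edgeR called 0 members and 0 of all genes, DESeq2 called 0 members, and 0 of the 10 had an unadjusted p under 0.05 against 3.14% of all genes. For Irs2 the female difference exceeded the male one by 0.14 (SE 0.175), for Igf2 by 0.56 (SE 0.682) and for Igfbp2 by 0.44 (SE 0.266). An average over the alleles cannot show a difference between the sexes that is confined to 1 allele, and that was not tested. The sexes themselves, 12 females against 12 males, did not differ past the threshold in any of the 10 genes with either tool: 0.0701% of all genes were called and 5.66% had an unadjusted p under 0.05, against 0 of the members. The largest of these differences in size was that of Irs2, with a mean of 111 ± 24.8 CPM over the females and 96.3 ± 18.2 CPM over the males (log2 fold change 0.21, SE 0.110, adjusted p = 0.902).

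Growth hormone itself was close to 0 in the hippocampus. Mouse Gh had at most 6 reads in any library and did not pass the filter. In Egr1wt mice it had 6 reads in all without Cre, in 4 of 6 mice, and 5 reads with Cre, in 2 of 6 mice (exact permutation test of the difference in mean CPM, two-sided, p = 0.924). In Egr1f mice there were 7 reads without Cre, in 2 of 6 mice, and 7 reads with Cre, in 6 of 6 mice (exact permutation test, two-sided, p = 0.996). At this depth, levels of a few hundredths of a CPM could not be told apart.

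A wider list of 72 genes of the axis was counted beside the 10: genes of growth hormone secretion, other hormones and receptors, further binding proteins, proteases, adaptors, JAK and STAT proteins, the PI3K, AKT and mTOR pathway, and FOXO factors. In the Egr1wt comparison 60 were tested and 0 were called by edgeR and 0 by DESeq2. At an unadjusted p under 0.05, 1 was higher with Cre and 3 were lower, 4 of 60 genes against 6.05% of all genes. Among the lower ones were Irs1, the other main adaptor of the receptors (-0.37), and Foxo1, a transcription factor restrained by AKT (-0.19), each with an adjusted p of 0.754. Irs1 was 11.2 ± 2.31 CPM with and 14.5 ± 2.90 CPM without Cre, and so lay lower in the comparison in which Irs2 was also lower. Within Egr1f 59 were tested, 0 were called by edgeR and 0 by DESeq2, and 6 were higher and 0 lower at an unadjusted p under 0.05, a smaller share than the 16.2% of all genes. The 3 with the lowest p were Gsk3b (0.26), a kinase inhibited by AKT, Mtor (0.23), the growth kinase, and Stat5b (0.23), which carries the growth hormone signal, with adjusted p values of 0.253, 0.255 and 0.270. For Egr1cKO against the other 18 mice 61 were tested, 0 were called by edgeR and 0 by DESeq2, and 10 were higher and 0 lower at that level, a share near the 15.1% of all genes. The lowest p values were those of Mtor (0.23, adjusted p = 0.204), Irs4 (1.79, adjusted p = 0.204), an adaptor at 1.05 ± 1.53 CPM in Egr1cKO mice, and Pik3ca (0.20, adjusted p = 0.223), the catalytic subunit of PI3K. Within Egr1f 41 of the 59 had a log2 fold change above 0, against 48.6% of all genes, and the median was 0.09. Within Egr1wt 23 of 60 were above 0, against 53.7% of all genes, and the median was -0.03. Whether the alleles differ in these counts was not tested.

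The genes that followed each member most closely over the 24 mice differed between members. The likeness was the Pearson r of log2(CPM + 1) over the 24 mice among the 19742 genes that passed the filter, and it is a description, since all points share libraries and depth. Irs2 was closest to the kinase gene Dyrk2 (r = 0.934), the sodium channel subunit Scn2b (r = 0.922) and 2900026A02Rik (r = 0.921). Igf1r was closest to Ubr4 (r = 0.936), Numa1 (r = 0.916) and Chd8 (r = 0.899), and Igf2r to Vps13b (r = 0.903), Lrp1b (r = 0.888) and Map2k6 (r = 0.880). Igfbp4 was closest to Syndig1 (r = 0.882), Pou3f1 (r = 0.793) and Cap2 (r = 0.787), Igfbp5 to Elk3 (r = 0.743), Lamp2 (r = 0.738) and Zic2 (r = 0.735). Ghr was closest to Atp13a5 (r = 0.798), Haus3 (r = 0.787) and Arhgef16 (r = 0.754), and Igf1 to Kif21a (r = 0.761), Map3k19 (r = 0.758) and Usp31 (r = 0.757).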

How the data were processed

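RNA was sequenced by the authors from the hippocampus of 24 mice as paired reads of polyA libraries without strand information. Per the labels, reads were trimmed with Trim Galore (version 3.8.2 in the submitters' processing notes) and aligned to GRCm38 with STAR 2.7.9. The authors deposited raw counts of fragments per Ensembl gene, which had not been normalized. Gene names and exon lengths came from GENCODE M21, which named 36493 of 36605 genes. Groups came from the labels, and each sample is a separate mouse.

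Counts were tested with edgeR 4.0.16 in R 4.3.3 (quasi-likelihood F-test, TMM factors, filterByExpr with a minimum count of 10, Benjamini-Hochberg adjustment over all genes tested). Sex was a covariate in the pooled Cre comparisons and in the factorial model, which also had floxP, Nestin-Cre and their interaction. The SE is the log2 fold change divided by the square root of F. A call needed an adjusted p of at most 0.05 and a fold of at least 1.2. The fold was not required in the factorial model or in the test of whether the Cre difference differed between the sexes. DESeq2 1.42.0, other scalings, no filter, other fits and leaving out each mouse were tried. CPM used TMM factors over the 19742 genes kept in all 24 mice. The code was tested on simulated counts with known changes.

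The members and lists were chosen with earlier results of these data known. The text names all 10 members, Egr1 and Gh, the wider list's genes with the 3 lowest p values in each pooled comparison, and the 3 genes most like each member, except 1 gene of the wider list that is not reported here. Ttr, Igf2os and Airn were added after their values were seen. No 2 libraries of a group agreed within sampling noise. Counting error is largest for Igf2, with 1 to 55 reads a mouse.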

Additional observations from a re-analysis of the deposited data

Results flagged for a closer look

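In groups of 6 mice of a genotype, Dixon's test for a single far value set 4 values apart among 40 tests, where chance gives about 1 in 20. Igf2r was 43.9 CPM in male 3 of Egr1cKO, below the other 5 at 54.1 to 58.7 CPM. Ghr was 12.55 CPM in the same mouse, above the other 5 at 8.38 to 9.91 CPM. Igfbp2 was 54.0 CPM in female 1 of Egr1wtNesCre+, above the other 5 at 18.5 to 31.7 CPM. This is the mouse with the highest choroid plexus sum. Irs2 was 93.9 CPM in male 2 of Egr1wtNesCre-, below the other 5 at 107 to 110 CPM. In edgeR's quasi-likelihood test on all mice and filtered genes, no member's Cre difference differed between the alleles past the threshold. Averaged over the alleles, none differed between the sexes either. Whether the sexes differed within Egr1f alone was not tested.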

How the results depend on the processing

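For the 10 genes, 1074 log2 fold changes were recomputed over 56 results, and 1022 kept their direction and their side of the threshold. Beyond these, 16 passed the threshold, 6 lost it and 30 changed sign. Where a value changed, the cause was not tested.

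With DESeq2, the genes called were 20 for Cre in Egr1wt, 79 for Cre in Egr1f, 42 for Egr1cKO against the other 18 mice, 19 for the Cre term, 335 for the interaction, 57 in Egr1wt females, 738 in Egr1f females and 3 in Egr1f males, against 0, 4, 1, 9, 1, 0, 50 and 1 with edgeR. Members called with DESeq2 were 1 for the interaction and 2 in Egr1f females. Without a filter on low counts the genes called were 156, 808, 7, 191, 1173, 236, 1189 and 76 in the same order, and 23 in Egr1wt males. The test of whether the Cre difference differed between the sexes then called 32 genes. Members called were then 1 for Cre in Egr1wt (Igfbp2), 3 in Egr1f (Igf2, Igfbp2, Irs2), 2 for the Cre term, 1 for the interaction, 1 in Egr1wt females and 3 in Egr1f females.

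Same-numbered mice of a sex and allele were not paired by the labels and did not deviate together (r from -0.128 to 0.225, above 0.1 in 2 of 12 pairs), and 4 of 24 mice correlated best with their own number. With the replicate block, 9 genes were called for Cre in Egr1f, 3 for Egr1cKO against the rest and 4 in Egr1f females, where 0 members were called and Irs2 had an adjusted p of 0.0981. In the block fits, the interaction of Irs2 was 0.61. The block changed no other count of called members. For Egr1cKO against the rest, library totals gave 2 genes, 1 fit of all 24 mice 7 and sex as a covariate 3. Without the 5 mice above 100 CPM of Ttr, an alternative chosen after seeing the data, 2, 1 and 19 genes were called in the 3 pooled comparisons.

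Leaving out 1 mouse gave 0 to 229 genes and 0 to 1 members for Cre in Egr1wt, 2 to 304 genes for Cre in Egr1f, 1 to 215 genes and 0 to 1 members for Egr1cKO against the rest, 5 to 12 genes for the Cre term, and 1 to 1455 genes and 0 to 1 members for the interaction. In single sexes it gave 0 to 33 genes in Egr1wt females, 2 to 2896 genes and 0 to 3 members in Egr1f females, 0 to 8 genes in Egr1wt males and 1 to 3 in Egr1f males. Irs2 was then called within Egr1wt without male 2 of Egr1wtNesCre+ (-0.40, adjusted p = 0.0319), in a fit that called 229 of all genes. It was also called against the other 18 mice without male 3 of Egr1cKO (0.47, adjusted p = 0.0336). Igf2, Igf2r and Irs2 were called in Egr1f females without Egr1fNesCre- female 1. Fits that left out 1 of these females called as many as 2896 of all genes.

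Among the 56 results, signs turned for the following values. In Egr1wt, Igfbp4 was 0.014 with library totals and 0.0029 without the sex covariate. Against the other 18 mice, Igfbp5 was -0.0067 with library totals and -2.66e-05 without the mice above 100 CPM of Ttr, which also turned the interaction of Igfbp2 from -0.22 to 0.20. With 1 mouse left out, the ranges that crossed 0 were, in Egr1wt, -0.12 to 0.12 for Igf1, -0.15 to 0.0053 for Igf1r, -0.20 to 0.0077 for Igfbp3, -0.060 to 0.047 for Igfbp4 and -0.0016 to 0.11 for Igfbp5. They were -0.019 to 0.071 for Igfbp5 against the other 18 mice, -0.042 to 0.077 for Irs2 in the Cre term, -0.11 to 0.59 for Igf2 and -0.33 to 0.037 for Igfbp2 in the interaction, and -0.094 to 0.30 for Igfbp2 in Egr1wt males.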

Other observations

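In Egr1f females, where most members separated by Cre, the wider list of the axis was counted as well. Of its 72 genes 60 were tested, 0 were called by edgeR and 4 by DESeq2, and 13 were higher and 2 lower with Cre at an unadjusted p under 0.05, with a median log2 fold change of 0.11. Of all genes in these females 18.4% had an unadjusted p under 0.05, and DESeq2 called 738. Of the 21 genes of the PI3K, AKT and mTOR pathway, which carries the signal from the receptors to growth and protein synthesis, 7 were higher and 0 lower at that level. Of the 4 FOXO genes, transcription factors that AKT keeps out of the nucleus, 2 were higher. In Egr1wt females 60 genes of the list were tested, 0 were called by either tool, and 2 were higher and 3 lower at that level, against 7.45% of all genes. Whether the 2 alleles differ in these counts was not tested.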
